A study of Mus musculus with 3 samples.

Results

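The mitochondrial ribosomal protein genes, which encode the protein part of the ribosome inside mitochondria, were measured in lower-limb skeletal muscle of mFoxO1KO mice and of control mice. In mFoxO1KO mice Foxo1, the gene of a forkhead transcription factor that insulin signalling keeps out of the nucleus, had been deleted inducibly and only in skeletal muscle. The control mice had no deletion per the labels. All were male C57BL/6 mice that ate an AIN93G diet with 0.625 g/kg doxycycline between 8 and 14 weeks of age, so the controls carried the doxycycline exposure too. The promoter that drove the deletion is not given in the sources used here. RNA of mFoxO1KO and control mice was hybridised in pairs to 3 Agilent arrays of 2 colours, with mFoxO1KO RNA in Cy5 and control RNA in Cy3. The labels call the replicates biological and do not say whether a channel held RNA of a single mouse. Because the dyes were never swapped, a dye effect of a probe and the effect of the genotype cannot be told apart in any ratio below.

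A member is a gene whose symbol starts with Mrpl (large subunit) or Mrps (small subunit) followed by a number. The symbols came from matching each probe's accession to RefSeq, since the files used here hold accessions and no gene names, and pseudogenes were left out. This gave 78 genes out of 32395 genes and unnamed accessions on the array, 49 of the large and 29 of the small subunit, covered by 100 probes and 127 spots per array. Of these, 77 were well above background in both channels of all 3 arrays and were tested. The exception was Mrpl21, a large subunit gene whose only probe was not well above background in either channel of any array. Its ratio therefore has no meaning here.

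As background, mitochondria keep a small genome that encodes a few core subunits of the respiratory chain, and they translate its messenger RNAs on ribosomes of their own. The RNA of these ribosomes is made inside the mitochondrion, while all of their proteins are encoded in the nucleus, made in the cytosol and imported. Some of the proteins have counterparts in bacterial ribosomes and others occur only in mitochondria. Skeletal muscle is rich in mitochondria, and the coactivator Ppargc1a is known to raise expression of nuclear genes for mitochondrial proteins in muscle.

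No spot on any array was saturated, and spots that the software called well above background made up 56.0% to 56.9% of an array in the mFoxO1KO channel, against 52.0% to 55.9% in the control channel. Foxo1 had normalised intensities of 912, 1145 and 994 in mFoxO1KO muscle, against 2579, 6141 and 4795 in control muscle. The groups did not overlap, and the mean log2 ratio of mFoxO1KO over control was -2.06 ± 0.49 (SD, n = 3 arrays; limma, adjusted p = 0.0278). Another Foxo1 probe, also well above background in both channels of every array, gave log2 ratios of -0.70, -1.64 and -1.84 on arrays 1, 2 and 3. On each array its fall was smaller than that of the probe above, which gave -1.50, -2.42 and -2.27. The position of these probes relative to the deletion is not known here. The skeletal muscle markers Acta1, Ckm, Myh1, Myh4, Tnnt3, Mylpf, Pvalb and Actn3 were all well above background in both channels of every array. Markers of fat differed between the arrays, with a median log2 ratio over 7 adipocyte genes of 2.85 on array 1, 0.19 on array 2 and 1.80 on array 3. The median of the 77 mitochondrial ribosomal protein genes was -0.013, -0.014 and -0.017 on the same arrays. These medians rest on the dye correction (loess), which centred the ratios of each array. With median centring in its place, the SD between arrays was 0.22 for the large and 0.24 for the small subunit median. The relation of fat to the ratios of the members was not tested. In whole muscle, fewer cells of a type and less RNA per cell cannot be told apart.

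None of the 77 mitochondrial ribosomal protein genes passed an adjusted p of 0.05, in either direction (limma, two-sided, adjusted over 17460 genes). Across all genes tested 2.75% passed, 2.06% higher and 0.699% lower in mFoxO1KO muscle. At an unadjusted p under 0.05 there were 15 members, 7 higher and 8 lower, or 19.5% of them, against 26.8% of all genes tested. The mean log2 ratios of the members ran from -0.39 for Mrpl41 to 0.25 for Mrpl38. No member differed by as much as 1.5-fold, and only 3.33% of all genes tested differed by more than that. The intensities of the mFoxO1KO and the control channels did not overlap for 22 of the 77, or 28.6%, against 25.8% of all genes tested. When the channels were fitted separately with the array as a replicate block, 3 members passed, which were Mrpl41 (adjusted p = 0.0375), Mrpl52 (adjusted p = 0.0490) and Mrpl38 (adjusted p = 0.0491, limma). They were 3.90% of the members, and 9.44% of all genes tested passed in that fit.

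The precision of the single genes limits what these data could have missed. The 95% interval of a member's mean log2 ratio reached between 0.14 and 0.24 to either side (limma, per gene and not adjusted). For 76 of the 77 the whole interval lay within a 1.5-fold change in either direction, as it did for 15438 of all 17460 genes tested. The member whose interval went further was Mrpl41, with -0.63 to -0.15. These intervals cover the spread between arrays and not the choice of dye correction. With each array centred on its median in place of loess, Mrps28 went from -0.17 to 0.10 and Mrpl38 from 0.25 to 0.47. Ratios were centred within each array by loess, so a change shared by all transcripts would not be seen.

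**Figure D1:**
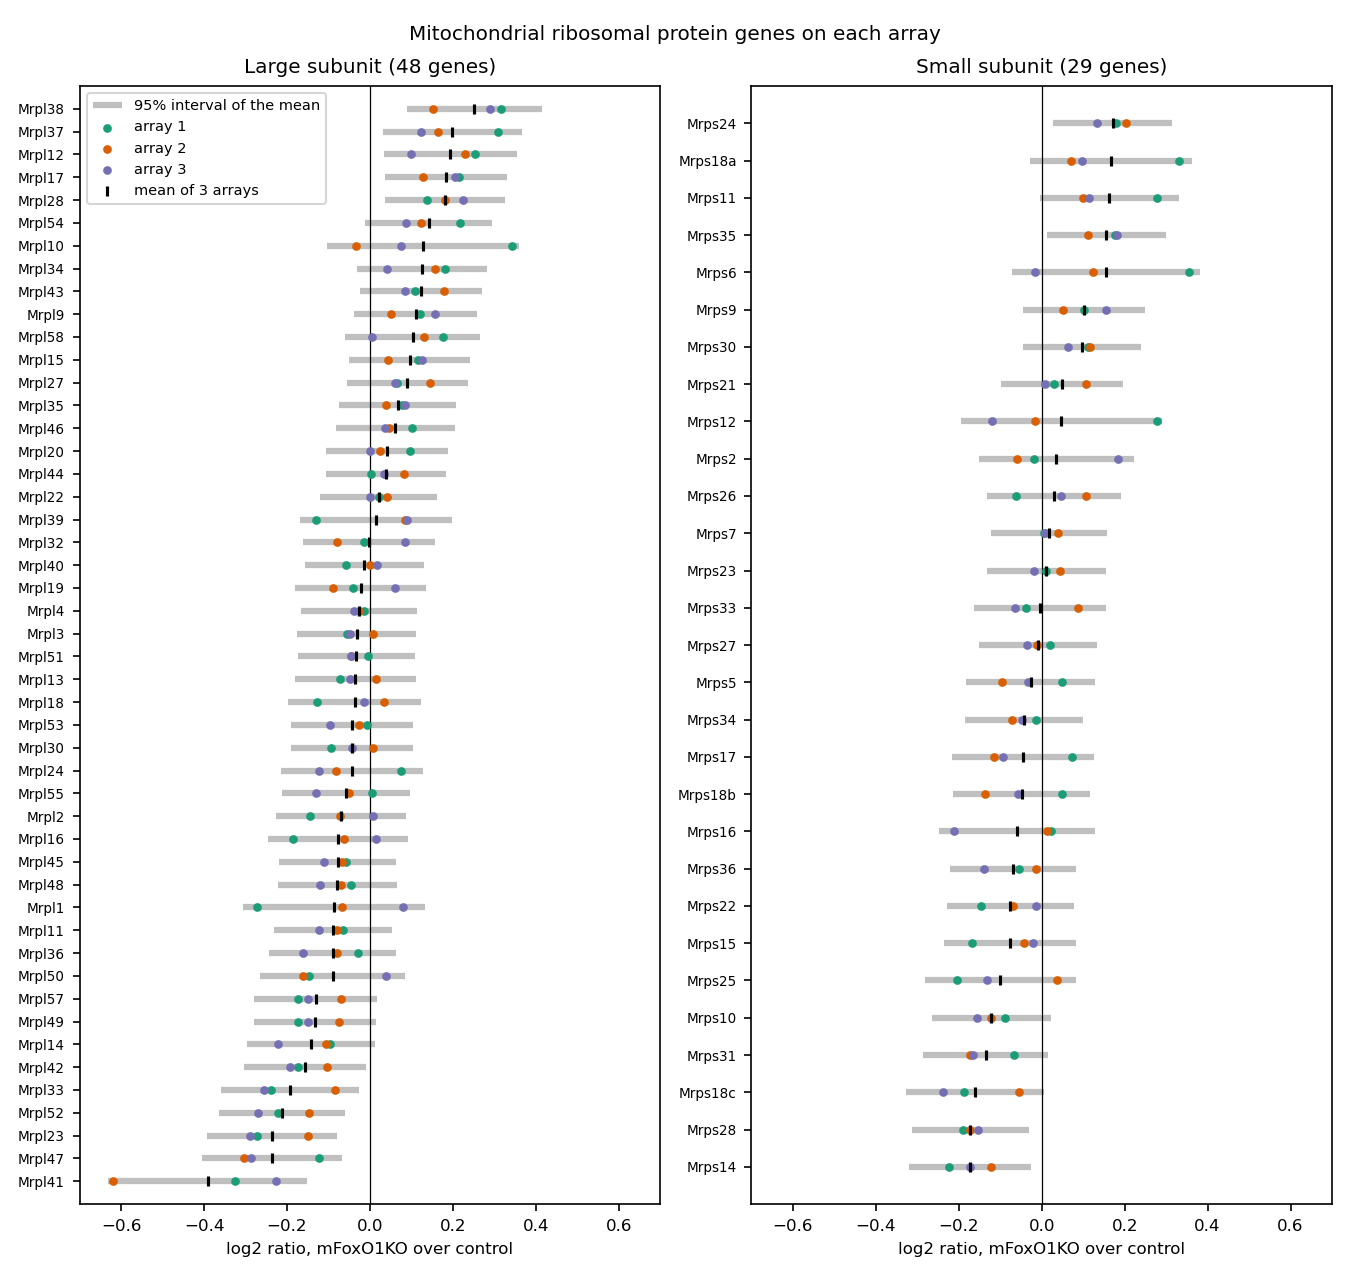
Log2 ratio of mFoxO1KO over control for each of the 48 large subunit genes (left) and 29 small subunit genes (right) that were tested. Coloured points are the 3 arrays, black ticks their mean and grey bars the 95% interval of the mean from limma. The means lie between -0.39 (Mrpl41) and 0.25 (Mrpl38). The small subunit, with fewer genes, covers the narrower range.

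Large and small subunit genes differed little in their medians on each of the 3 arrays. On array 1 the median log2 ratio was -0.022 over 48 large subunit genes and 0.0092 over 29 small subunit genes. On array 2 the medians were -0.026 for the large and -0.013 for the small subunit. On array 3 they were 0.0024 for the large and -0.033 for the small subunit. The large subunit was thus the lower one on arrays 1 and 2 and the higher one on array 3. The difference of the medians, large minus small, was -0.031, -0.013 and 0.035, with a mean of -0.0031 ± 0.034 (SD, n = 3 arrays), so it was smaller than its spread between arrays. The median of all genes tested was 0.022, -0.0023 and 0.0077 on the arrays.

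The number of genes above 0 was 20, 23 and 25 of 48 for the large subunit and 16, 14 and 10 of 29 for the small subunit on arrays 1, 2 and 3. The standard deviation over genes on the arrays was 0.16, 0.14 and 0.14 for the large subunit and 0.16, 0.10 and 0.12 for the small subunit. Over all genes tested it was 0.36, 0.27 and 0.28. Structures of the mammalian mitochondrial ribosome place the products of Mrps30 and Mrps18a in the large subunit despite their names. With these counted as large subunit genes the mean difference was 0.0083 ± 0.031, again smaller than its spread between arrays.

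**Figure D2:**
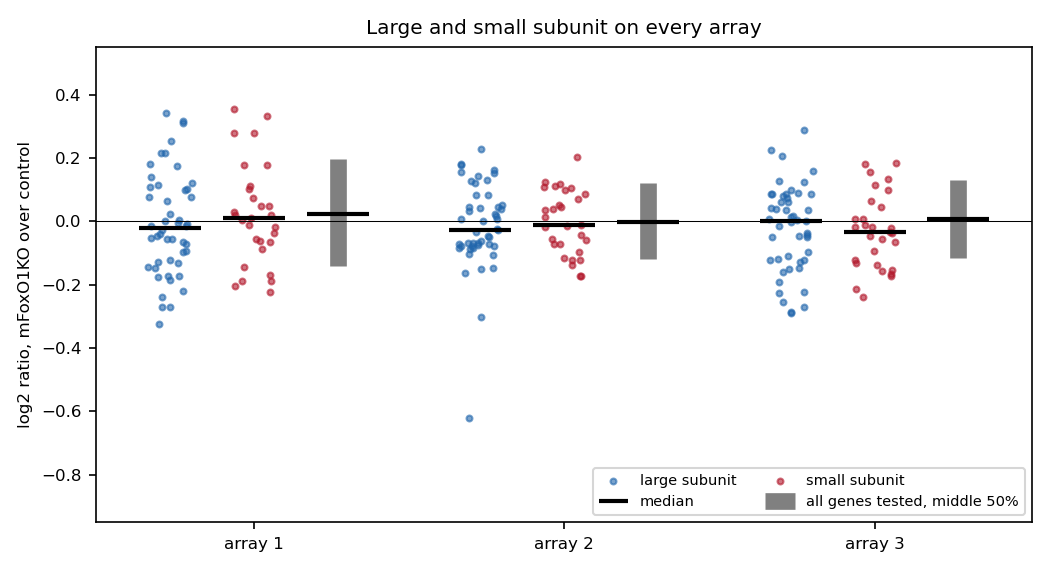
Log2 ratio of mFoxO1KO over control (vertical axis) on each array for large subunit genes (blue) and small subunit genes (red), 1 point per gene; black lines are medians and grey bars the middle 50% of all 17460 genes tested. The medians of the subunits differ by -0.031, -0.013 and 0.035 on arrays 1, 2 and 3, and Mrpl41 is the lone point at -0.62 on array 2.

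At the upper end of the large subunit stood Mrpl38, Mrpl37, Mrpl12, Mrpl17 and Mrpl28. Mrpl38, a protein with no bacterial counterpart, had normalised intensities of 2558, 2452 and 2794 in mFoxO1KO muscle, against 2056, 2206 and 2288 in control muscle. All 3 mFoxO1KO intensities were above all 3 control intensities, and the mean log2 ratio was 0.25 ± 0.087 (limma, adjusted p = 0.0965). Mrpl12, which forms the flexible stalk that recruits translation factors and is also reported to bind the mitochondrial RNA polymerase, had 7617, 7276 and 7349 in mFoxO1KO muscle, against 6391, 6206 and 6858 in control muscle. The groups again did not overlap, with a mean of 0.19 ± 0.083 (limma, adjusted p = 0.139). Mrpl37, Mrpl17 and Mrpl28 had means of 0.20, 0.18 and 0.18 and were above 0 on every array, while the intensities of the groups overlapped.

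At the lower end of the large subunit stood Mrpl41, Mrpl47, Mrpl23, Mrpl52 and Mrpl33, all below 0 on every array. Mrpl41 had normalised intensities of 5147, 4632 and 4802 in mFoxO1KO muscle, against 6448, 7120 and 5622 in control muscle. No mFoxO1KO intensity reached a control intensity, but the 3 log2 ratios of -0.33, -0.62 and -0.23 were uneven. Their mean was -0.39 ± 0.20 (limma, adjusted p = 0.0900). Mrpl23, the counterpart of a bacterial protein at the exit of the peptide tunnel, had 15803, 14425 and 14372 in mFoxO1KO muscle, against 19071, 15994 and 17565 in control muscle. The mean was -0.24 ± 0.076 (limma, adjusted p = 0.101). Mrpl47 had 2491, 2289 and 2158 in mFoxO1KO muscle, against 2711, 2823 and 2634 in control muscle, with a mean of -0.24 ± 0.10 (limma, adjusted p = 0.110). Mrpl52 and Mrpl33 had means of -0.21 and -0.19, and for these as well the groups did not overlap. With each array centred on its median in place of loess, Mrpl33, Mrpl52 and Mrpl23 were above 0 (0.12, 0.064 and 0.060). Mrpl41 and Mrpl47 were at -0.15 and -0.024 in that setting, and at the upper end Mrpl38 and Mrpl12 were at 0.47 and 0.44.

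**Figure D3:**
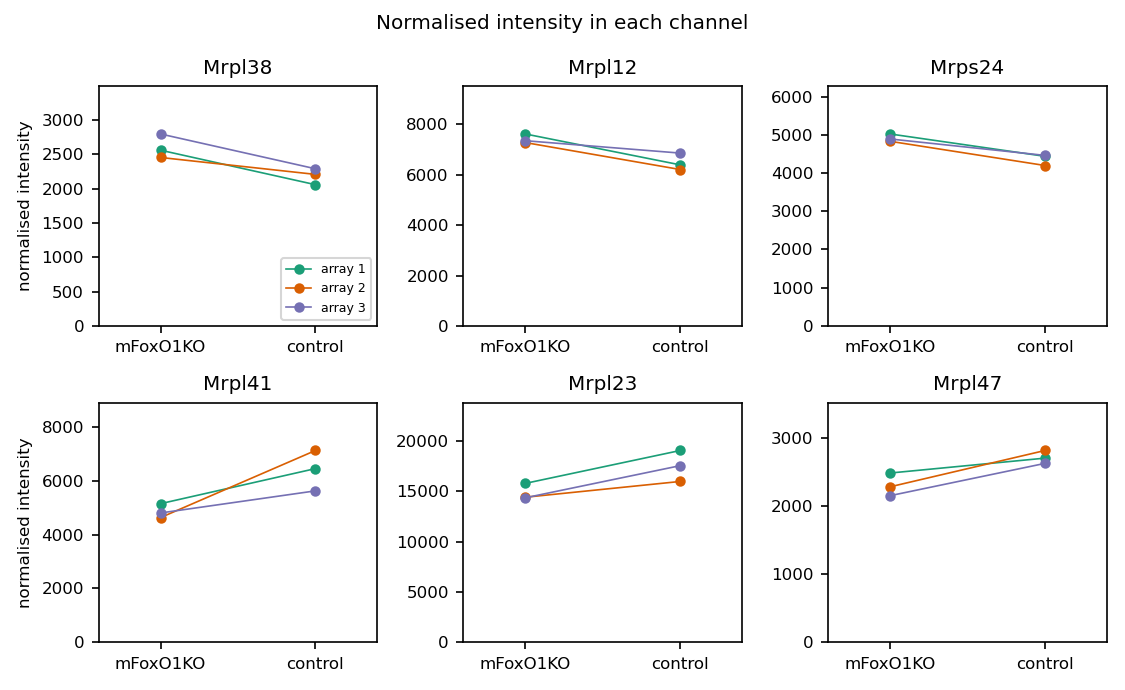
Normalised intensity (vertical axis, starting at 0) of 6 members in mFoxO1KO and control muscle, with a line joining the channels of an array. Mrpl38, Mrpl12 and Mrps24 are higher in mFoxO1KO on all 3 arrays and Mrpl41, Mrpl23 and Mrpl47 lower on all 3; none passed the adjusted threshold, and Mrpl23 turned above 0 with median centring.

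The small subunit had a narrower range, with means between -0.17 and 0.17, but it also had fewer genes (29 against 48). Its highest members were Mrps24, Mrps18a, Mrps11, Mrps35 and Mrps6. Mrps24 had normalised intensities of 5021, 4829 and 4890 in mFoxO1KO muscle, against 4437, 4196 and 4461 in control muscle. The groups did not overlap, and the mean was 0.17 ± 0.036 (limma, adjusted p = 0.143). Mrps18a and Mrps6 were highest on array 1, where they had 0.33 and 0.36, against 0.098 and -0.017 on array 3. Mrps11 and Mrps35 had means of 0.16 each and were above 0 on every array. Without replicate 1 the means of Mrps11, Mrps18a and Mrps6 were 0.11, 0.085 and 0.054. With median centring the 5 highest small subunit members were at 0.35 to 0.43.

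The lowest small subunit members were Mrps14, Mrps28, Mrps18c, Mrps31 and Mrps10, all below 0 on every array. Mrps28 was the most even of them, with log2 ratios of -0.19, -0.17 and -0.15. Its normalised intensities were 11198, 10762 and 10770 in mFoxO1KO muscle, against 12762, 12138 and 11977 in control muscle, and the mean was -0.17 ± 0.018 (limma, adjusted p = 0.137). Mrps14, the counterpart of a bacterial protein in the head of the small subunit, had 4201, 4004 and 4265 in mFoxO1KO muscle, against 4901, 4362 and 4807 in control muscle. Its mean was -0.17 ± 0.050 (limma, adjusted p = 0.147). Mrps18c, Mrps31 and Mrps10 had -0.16, -0.14 and -0.12. All 5 were above 0 with median centring, at 0.055 to 0.10.

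Where a member had 2 probes, the gap between them was for some as large as the ratios themselves. Of 22 such members 16 had means of the same sign on both probes and 6 did not. The means lay over 0.2 apart for 5 members, Mrpl4, Mrps18b, Mrpl41, Mrpl50 and Mrpl39, and the largest gap was 0.24, for Mrpl4 (-0.026 and 0.21). The second probe of Mrpl41 gave -0.22, -0.19 and -0.12 on the arrays, with a mean of -0.17, so it was lower on every array but without the low value of array 2. The second probe of Mrpl47 gave -0.19, -0.48 and -0.46, with a mean of -0.38, which was further from 0 than the brighter probe. Probes of Mrpl34, Mrps35 and Mrpl50 were printed 10 times on each array. The SD between arrays was 0.075 for Mrpl34 and 0.11 for Mrpl50, larger than the 0.044 and 0.041 between spots of an array. For Mrps35 the values were 0.039 between arrays and 0.042 between spots.

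The small ratios of single members recurred from array to array. Of the 77 members, 49 (63.6%) had the same sign on all 3 arrays, 24 above and 25 below 0, against 52.4% of all genes tested. Across the 77 genes, Pearson's r between any 2 arrays lay between 0.63 and 0.67, and rho by Spearman's ranks between 0.64 and 0.71. For all genes tested r lay between 0.51 and 0.54. Genes are not independent replicates, and the same probes with the same dye orientation were read on each array, so an effect of the probe recurs as an effect of genotype would.

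The ratios of the members also went with the brightness of their probes. Across the 77 genes, the mean log2 ratio correlated with the mean log2 intensity with Spearman's rho of -0.33 and Pearson's r of -0.32, against rho of -0.046 across all genes tested. By ranks the correlation was -0.45 within the large subunit and -0.10 within the small subunit, and this difference was not tested. The 26 dimmest members had a median of 0.0375, with 15 above 0, and the 26 brightest a median of -0.044, with 8 above 0. The members were bright as a group, with a median log2 intensity of 12.4 against 9.05 for all genes tested, and their level relative to 0 rests on the dye correction at that brightness. When each array was centred on its median without loess, 75 of the 77 members were above 0. The medians of the subunits were then 0.23 each, with an SD between arrays of 0.22 (large) and 0.24 (small). That setting raised the median of all genes to 0.16, and relative to it the subunits stood 0.064 (large) and 0.070 (small) higher. The part of brightness in the order of the members was not tested.

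**Figure D4:**
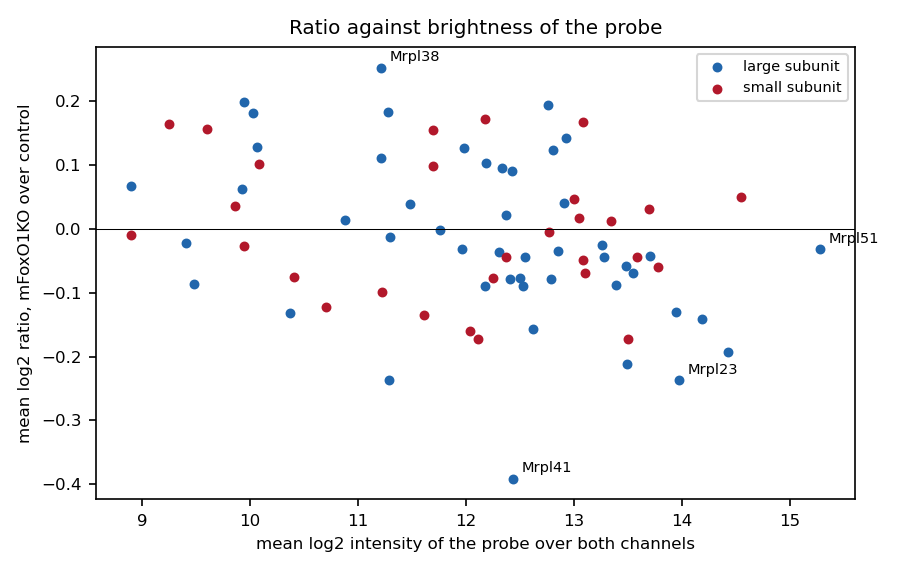
Mean log2 ratio of mFoxO1KO over control (vertical axis) against mean log2 intensity of the probe (horizontal axis) for 48 large (blue) and 29 small (red) subunit genes. The brighter members lie lower, with Spearman's rho of -0.33 over the 77 genes, -0.45 for the large and -0.10 for the small subunit.

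Members with and without a counterpart in the bacterial ribosome had like ratios. This grouping was made from textbook knowledge after the values were seen. The median of the mean log2 ratios was -0.026 over 45 members classed here as having a bacterial counterpart and -0.032 over 31 classed as having none. The placements, such as that of Mrpl47 among the 31, were not checked against protein sequences. Mrps36, which has since been assigned to the oxoglutarate dehydrogenase complex rather than to the ribosome, was in neither class and had a mean of -0.069 ± 0.063. Mrpl58, which releases peptides from stalled ribosomes, had 0.10 ± 0.089 (limma, adjusted p = 0.348). The mitochondrial ribosomal proteins that carry other names did not pass either, with a median of -0.087 over Dap3, Ptcd3, Aurkaip1, Chchd1 and Gadd45gip1.

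Of 192 other genes tested for mitochondrial gene expression, protein import and the respiratory chain, 1 passed, Malsu1. This was 0.521% of them, below the 2.75% of all genes tested. Malsu1 is an assembly factor that binds the large subunit while it is built and keeps the small subunit away. Its normalised intensities were 22918, 23727 and 23810 in mFoxO1KO muscle, against 32053, 30251 and 31600 in control muscle. The groups did not overlap, and Malsu1 fell by 0.41 on the log2 scale (-0.41 ± 0.067, SD, n = 3 arrays; limma, adjusted p = 0.0486). The adjusted p was 0.0707 without replicate 1, 0.178 without replicate 2 and 0.106 without replicate 3, and with median centring the ratio was -0.086 (adjusted p = 0.774). The other 23 assembly genes tested did not pass, and the median of the 24 was 0.021.

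The remaining lists of mitochondrial gene expression held no gene past the threshold. Translation factors had a median of 0.065 over 13 genes, with 0.15 ± 0.026 for Tufm, which brings aminoacyl-tRNA to the ribosome. Mitochondrial tRNA synthetases and amidotransferase subunits had a median of 0.033 over 19 genes, and Gatb and Cars2 had 0.33 ± 0.044 and 0.32 ± 0.058 (limma, adjusted p of 0.0566 and 0.0615). Genes of mitochondrial DNA and RNA had a median of -0.0625 over 26. Among these, Tfam, which packages and transcribes mitochondrial DNA, had -0.22 ± 0.022 (limma, adjusted p = 0.0980). Slirp and Lrpprc, whose products form a complex that stabilises mitochondrial messenger RNA, had -0.36 ± 0.16 and 0.20 ± 0.017. Nuclear genes of the respiratory chain had a median of 0.041 over 82, and import genes -0.0205 over 23. Cytosolic ribosomal proteins, the counterparts outside the mitochondrion, had a median of -0.029 over 82 genes with none past the threshold.

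Among 14 regulators of mitochondrial genes 2 rose, the coactivator Ppargc1a and the nuclear receptor gene Ppara. They were 14.3% of a short list, and 2.06% of all genes tested were higher. Ppargc1a had normalised intensities of 2756, 6496 and 4777 in mFoxO1KO muscle, against 1306, 1683 and 2367 in control muscle, and a mean of 1.35 ± 0.52 (limma, adjusted p = 0.0492). Ppara, which drives genes of fatty acid oxidation, had 652, 582 and 632 in mFoxO1KO muscle, against 383, 312 and 331 in control muscle, and a mean of 0.87 ± 0.088 (limma, adjusted p = 0.0179). Without replicate 2 its adjusted p was 0.106. Another Ppara probe gave 0.61, 0.94 and 0.90 on the arrays, and a further Ppara probe only 0.088, 0.35 and 0.35. Ppara is also a marker of brown fat cells. Of the other brown fat markers, Cidea had log2 ratios of 4.04, 1.33 and 4.0 on the arrays, while Ucp1 and Elovl3 were not well above background on all 3 arrays. The part of fat cells in the ratios of both regulators was not tested. Ppargc1a did not pass when any 1 array was left out (adjusted p between 0.0562 and 0.0646). The log2 ratios of Ppargc1a were 1.08, 1.95 and 1.01 on arrays 1, 2 and 3, and the medians of the 77 members -0.013, -0.014 and -0.017. The relation of Ppargc1a to the ratios of the members was not tested. Ppargc1b and Pprc1, its relatives, had 0.16 ± 0.18 and -0.16 ± 0.12. Nrf1, Gabpa and Esrra, transcription factor genes that act with these coactivators, had 0.081 ± 0.017, -0.15 ± 0.18 and -0.0079 ± 0.12, and none of these 5 passed.

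**Figure D5:**
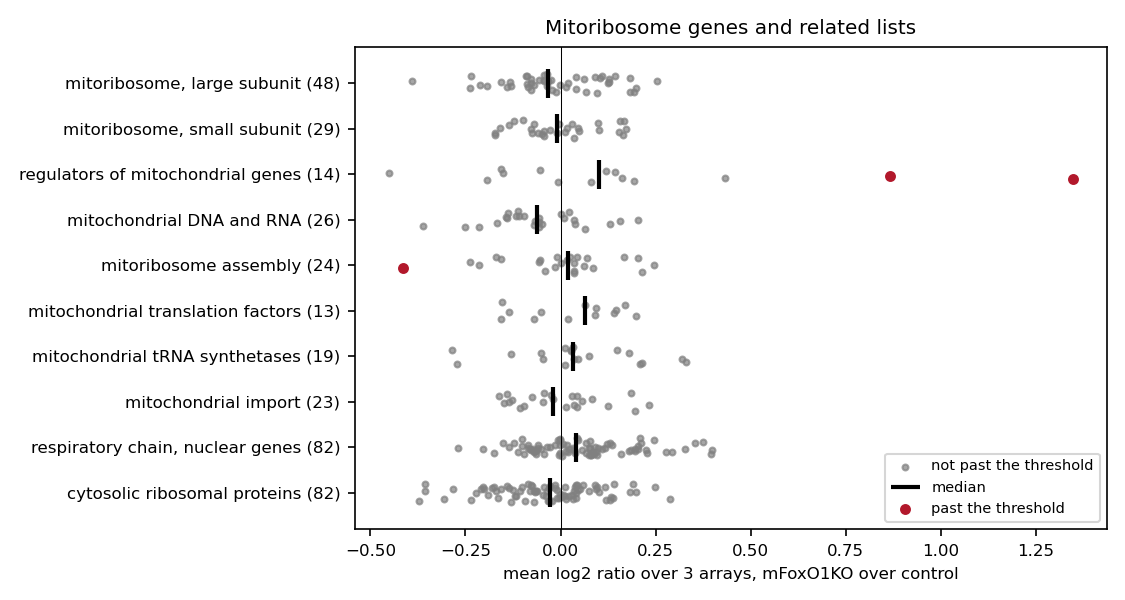
Mean log2 ratio over 3 arrays (horizontal axis) for the large and small subunit and 8 related gene lists, 1 point per gene with the number tested in brackets; black lines are medians and red points passed an adjusted p of 0.05. Red points are Ppargc1a and Ppara on the right and Malsu1 on the left, and no subunit gene is red.

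Promoters of the members were read from RefSeq (GRCm38.p6) to show what the genes share in sequence. A window of 250 bases before and 50 after the start was found for 68 of the 77 tested members, and the first entry of a gene was used. The motifs searched on both strands were CCGGAAG (bound by ETS factors such as GABPA), GCGCATG (core of the NRF1 site), AAGATGGC (YY1), GTAAACA (forkhead factors) and TATAAA (the TATA box). CCGGAAG was in 24 of the 68 windows (35.3%), against 9.12% of the windows of 27025 genes. These 27025 were all genes with a window, and were not limited to genes tested here or to genes as bright as the members. AAGATGGC was in 12 (17.6%, against 2.88%), GCGCATG in 8 (11.8%, against 4.04%), GTAAACA in 2 (2.94%, against 3.55%) and TATAAA in 4 (5.88%, against 14.2%). The median GC content was 58.2% in the members and 52.7% over all genes, and windows richer in GC hold more GC-rich words. The median log2 ratio was -0.0070 over the 24 members with CCGGAAG and -0.044 over the 44 without it. It was 0.032 over the 12 with AAGATGGC and -0.043 over the 56 without it, and 0.017 over the 8 with GCGCATG and -0.040 over the 60 without it. These are descriptions of small groups, with no test. A match of letters is a description and not a site shown to be bound.

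The bases before the start are shown for 1 high and 1 low member of each subunit, chosen after the values were seen because each holds at least 1 of these motifs. They are written 5′ to 3′ on the strand of the gene, and capitals mark the motifs or their reverse complements. Mrpl17 lies at chr7:105811088-105811337 (minus strand), Mrpl52 at chr14:54426659-54426908 (plus), Mrps11 at chr7:78782881-78783130 (plus) and Mrps18c at chr5:100798509-100798758 (plus).
Mrpl17: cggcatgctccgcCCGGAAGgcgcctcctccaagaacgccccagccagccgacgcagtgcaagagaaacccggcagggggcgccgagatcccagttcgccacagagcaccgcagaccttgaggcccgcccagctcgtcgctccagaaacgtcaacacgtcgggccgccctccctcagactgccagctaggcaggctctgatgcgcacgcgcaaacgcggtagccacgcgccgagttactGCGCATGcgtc
Mrpl52: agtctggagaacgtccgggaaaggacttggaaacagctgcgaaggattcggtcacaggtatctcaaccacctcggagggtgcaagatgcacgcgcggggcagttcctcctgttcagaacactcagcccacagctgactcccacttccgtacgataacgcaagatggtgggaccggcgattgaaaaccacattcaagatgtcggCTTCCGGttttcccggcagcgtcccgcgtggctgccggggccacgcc
Mrps11: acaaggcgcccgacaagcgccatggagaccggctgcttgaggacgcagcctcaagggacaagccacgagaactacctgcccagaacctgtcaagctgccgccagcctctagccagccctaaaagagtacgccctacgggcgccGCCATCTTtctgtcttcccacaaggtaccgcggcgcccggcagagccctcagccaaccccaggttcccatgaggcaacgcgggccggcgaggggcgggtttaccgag
Mrps18c: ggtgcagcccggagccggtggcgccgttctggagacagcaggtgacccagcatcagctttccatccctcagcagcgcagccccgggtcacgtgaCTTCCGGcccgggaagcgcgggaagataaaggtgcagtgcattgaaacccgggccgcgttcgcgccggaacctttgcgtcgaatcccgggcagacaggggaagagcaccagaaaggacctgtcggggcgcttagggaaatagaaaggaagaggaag
Mrpl17, with a mean log2 ratio of 0.18, holds CCGGAAG far from the start and GCGCATG next to it. Mrpl52, with -0.21, and Mrps18c, with -0.16, hold CCGGAAG on the other strand, and Mrps11, with 0.16, holds AAGATGGC on the other strand. The ETS motif stood before a member of the upper end as well as before members of the lower end. Because these members were chosen for holding a motif, this says nothing about the other members.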

How the data were processed

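RNA of mFoxO1KO and control mice was measured on 3 arrays of 1 slide, and each array pairs the channels. Per the file headers the deposited files come from Agilent Feature Extraction 11.5.1.1, while the submitters' processing notes name 9.3.2.1. They hold median spot and background intensity as scanned, processed intensity that per the file headers was corrected for background, trend and dye, a log10 ratio made from it, and flags, where other values are the software's own calls of 0 or 1 as deposited. Gene names came from RefSeq (GRCm38.p6), which matched 27508 of 39429 probes (69.8%). The planned GeneName column was not in the files used here.

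Background was corrected with normexp (offset 50), and dyes were corrected with loess that gave control spots weight 0 (limma 3.58.1, R 4.3.3). Between 357 and 408 outlier spots per array were left out. Repeat spots were averaged. Probes were kept where either channel called them well above background on each of the 3 arrays, always in that channel, and the brightest probe of a gene was used. The log2 ratio was tested against 0 (lmFit, eBayes) over 17460 genes with Benjamini-Hochberg adjustment. Intensities printed are after loess and Aquantile, which leaves ratios as they are. Errors are SD over arrays. The fit was tested on simulated data. The members and lists were chosen with earlier results of these data known. Named members are the 5 highest and 5 lowest of each subunit, any past the threshold, any with probes over 0.5 apart (none), and any not tested. Other members are named after their values were seen. From other lists, genes past the threshold and some of the 4 with the smallest p are named, and Foxo1, Ppargc1a, Ppargc1b, Pprc1, Nrf1, Gabpa, Esrra and Tfam always. Nothing in the labels says more about the replicates than that they are biological, and the number of arrays limits the precision.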

Additional observations from a re-analysis of the deposited data

How the results depend on the processing

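No mitochondrial ribosomal protein gene passed the threshold under 13 of 14 alternatives, and 3 passed with the array as a replicate block in a fit of separate channels (limma). Of 280 values of the 20 named members, 269 kept their direction and their side of the threshold, and those 3 passed only under that block. Aquantile between arrays, 1 of the 14, leaves ratios as they are. Its values were thus set in advance and say nothing about stability. Median centring without loess moved the medians to 0.23 ± 0.22 for the large and 0.23 ± 0.24 for the small subunit (SD, n = 3 arrays). The shift thus varied widely between arrays. The difference of the medians stayed within 1 SD of -0.0031 under every alternative run. Median centring turned 8 named members above 0. These were Mrpl33 (0.12), Mrpl52 (0.064), Mrpl23 (0.060), Mrps10 (0.087), Mrps31 (0.082), Mrps18c (0.066), Mrps28 (0.10) and Mrps14 (0.055). Their adjusted p in that setting lay between 0.658 and 0.862 (limma). The cause was not tested. Leaving out each array in turn gave 0 members, large subunit medians of -0.024 to -0.0097, small subunit medians of -0.023 to -0.0017 and differences of -0.022 to 0.011. The count of all genes past the threshold was 481. It was 212 with the software's processed signals, 1204 with median centring, 746 without a filter, 55 with probes above background in both channels, 216 with separate channels and no replicate block, 1649 with the block, and 49 to 405 with an array left out (405, 49 and 157 without replicates 1, 2 and 3). Leaving out Mrps36, added after the data were seen, gave a difference of -0.011. Malsu1 passed in 8 of 14 alternatives and Ppargc1a in 6 of 14. Signal over background limits dim probes. The median log2 intensity was 12.4 over the members tested and 9.05 over all genes tested, but the dimmest member tested was at 8.90.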
